A study of Rattus norvegicus with 26 samples.

Results

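The genes described here are 9 complement genes of the rat spinal cord, namely *C1qa*, *C1qb*, *C1qc*, *C1r*, *C1s*, *Serping1*, *C3*, *C3ar1* and *C5ar1*. They were chosen by name from a list of complement components and receptors, out of 32883 genes in the count table, and all 9 were among the 17990 genes that passed the filter on low counts and were tested. Bulk RNA-seq was carried out on 26 libraries in 8 groups, made from 5 mm segments of thoracic cord of wild type female Sprague-Dawley rats (250 g, postnatal day 70). The same age is given for every group, although the injured groups were taken at different weeks. The age of each group at sampling is therefore not known. The injury was a compression at T10 with a 60 g aneurysm clip for 1 min, and at day 7 the rats received an intrathecal injection of mesenchymal stem cells from human umbilical cord (hUC-MSCs), which are cultured stromal cells, or of phosphate-buffered saline (PBS). The groups were uninjured or sham cord (Intact, n = 4), injured cord at the time of transplantation (sub-SCI, n = 3), injured cord given PBS and taken 1, 2 or 4 weeks after the transplantation (wpt), namely +PBS-1w (n = 3), +PBS-2w (n = 2) and +PBS-4w (n = 4), and injured cord given hUC-MSCs and taken at the same weeks, namely +MSC-1w (n = 3), +MSC-2w (n = 3) and +MSC-4w (n = 4). The study's methods give daily cyclosporin A against rejection of the human cells, so the +PBS and +MSC groups share an immune suppressant. The methods do not say whether Intact or sub-SCI rats received it. The methods section counts 2 repeats for +MSC-2w, whereas the labels and the files, like the results text of the study, hold 3 libraries of +MSC-2w, so that 3 were used.

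Complement is a cascade of blood and tissue proteins. In the classical pathway C1q, a hexamer built from A, B and C chains, recognises antibody, debris or synapses and switches on the proteases C1r and C1s, which are held in check by C1 inhibitor, the product of *Serping1*. Their cleavage products lead to the splitting of C3, whose fragments tag targets for phagocytosis and, with C5a, attract and activate myeloid cells through the receptors encoded by *C3ar1* and *C5ar1*. In the central nervous system C1q is made mainly by microglia and macrophages, C3 is made by several cell types including reactive astrocytes and myeloid cells, and C1r, C1s and C1 inhibitor are made by stromal cells and astrocytes among others.

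The *C1qa*, *C1qb* and *C1qc* genes are neighbours on chromosome 5 in the RefSeq annotation of the GRCr8 assembly, in the order *C1qb*, *C1qc*, *C1qa* with 0 protein-coding genes between them, and *C1r* and *C1s* are likewise adjacent on chromosome 4. RefSeq promoters were matched for 5 of the 9 genes, *C1qa*, *C1qb*, *C1r*, *C3* and *C3ar1*. The 250 bases before the start site are shown for *C1qa* and *C1qb*, as a pair of C1q chains that moved together, and for *C3*, as the member that moved least like the others. Capitals mark each match to the 5 motifs searched on both strands, which were GAGGAA (the core of the myeloid factor PU.1), TTCNNNGAA (GAS), the interferon response element (ISRE, a pair of GAAA spaced by 2 bases), the NF-kB element (GGG and TTTCC spaced by 2 bases) and TTNNGNAA (C/EBP). No match overlapped another.
C1qa (GRCr8, chr5:154419934-154420183, minus strand): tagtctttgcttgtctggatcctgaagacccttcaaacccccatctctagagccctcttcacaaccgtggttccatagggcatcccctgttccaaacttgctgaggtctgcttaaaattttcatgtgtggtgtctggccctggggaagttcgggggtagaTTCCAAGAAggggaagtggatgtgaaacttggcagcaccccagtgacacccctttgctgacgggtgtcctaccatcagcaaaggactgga
C1qb (GRCr8, chr5:154407828-154408077, minus strand): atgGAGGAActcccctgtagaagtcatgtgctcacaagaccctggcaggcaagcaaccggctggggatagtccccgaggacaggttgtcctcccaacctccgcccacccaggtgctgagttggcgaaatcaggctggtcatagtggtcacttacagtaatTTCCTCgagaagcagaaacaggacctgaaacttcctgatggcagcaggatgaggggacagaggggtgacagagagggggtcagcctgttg
C3 (GRCr8, chr9:2201340-2201589, minus strand): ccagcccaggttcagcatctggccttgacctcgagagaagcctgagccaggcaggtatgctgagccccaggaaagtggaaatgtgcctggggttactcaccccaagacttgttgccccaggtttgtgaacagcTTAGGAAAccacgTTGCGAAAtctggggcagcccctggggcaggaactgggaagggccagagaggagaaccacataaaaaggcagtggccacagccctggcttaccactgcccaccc
The *C1qa* window held 1 GAS match, the *C1qb* window 2 GAGGAA matches and the *C3* window 2 C/EBP matches. Of the other promoters, *C1r* held 1 GAGGAA and 2 C/EBP matches and *C3ar1* held 1 NF-kB match. The windows searched held 300 bases, the 250 before the start site and 50 after it, and every match listed here lay before the start site. Among 33469 rat promoter windows of 300 bases, 27.6% held GAGGAA, 8.87% GAS, 3.92% ISRE, 1.53% NF-kB and 41.3% the C/EBP letters. No 2 of the 5 windows held the same set of motifs. A match describes the letters only and says nothing about binding.

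Library totals ranged from 19496602 to 43468509 reads assigned to genes. Levels are given below as counts per 1000000 reads (CPM) of a library total scaled by the trimmed mean of M-values (TMM), and fold changes are log2 ratios from edgeR's quasi-likelihood fit to all 26 libraries, with adjusted p-values over all 17990 genes. A gene is called differentially expressed (DEG) where its log2 fold change exceeds 1 in size with an adjusted p under 0.01, and calls at an adjusted p under 0.05 at any fold are given as such. The Intact libraries carried the markers of the labelled tissue, with summed oligodendrocyte markers of 49380 to 55950 CPM and neuronal markers of 8285 to 10180 CPM, while the endothelial marker *Cldn5* was at 0 counts in every library. Microglia and macrophage markers rose with injury, from 375.5-536.3 summed CPM in Intact to 3004-3529 CPM in sub-SCI, and fibroblast markers from 255.3-1411 to 8218-19860 CPM. In whole tissue, fewer cells of a type and less RNA per cell cannot be told apart.

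The C1q genes rose 14.5-fold to 23.8-fold over Intact by day 7 and were called in every injured group. *C1qa*, the A chain, was at 58.0, 84.3, 78.0 and 108 CPM in the 4 Intact libraries. In sub-SCI *C1qa* stood at 1609, 1222 and 746 CPM, and in +PBS-1w at 1887, 1694 and 1137 CPM. All injured libraries were far above all Intact libraries, and the sub-SCI and +PBS-1w ranges overlapped. The log2 fold change of *C1qa* over Intact was 3.86 (SE 0.306) in sub-SCI, 4.26 (SE 0.311) in +PBS-1w, 3.55 in +PBS-2w and 3.28 in +PBS-4w, all DEG calls with adjusted p-values between 6.92e-10 and 3.5e-08. The C1q transcripts together took 0.0104% to 0.0216% of reads in Intact and up to 0.462% in +PBS-1w.

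*C1qb*, the B chain, was at 30.1, 54.0, 49.4 and 64.1 CPM in Intact and 919, 1002 and 627 CPM in sub-SCI. The B chain stayed high in +PBS-1w at 1240, 1248 and 732 CPM and was lower in +PBS-4w at 608, 375, 534 and 389 CPM. *C1qc*, the C chain, had the steepest injury response of the C1q genes, from 22.2, 37.8, 47.3 and 48.4 CPM in Intact to 1154, 989 and 634 CPM in sub-SCI, which is a 23.8-fold rise (log2 4.57, 95% interval 3.89 to 5.25, adjusted p = 2.85e-10). In +PBS-1w the *C1qc* libraries were at 1397, 1244 and 751 CPM, 29.0-fold above Intact. By 4 wpt the +PBS libraries of *C1qc* had come down to 572, 326, 507 and 323 CPM, all under the lowest sub-SCI library of 634 CPM. That fall from sub-SCI was a DEG call for *C1qc* (log2 -1.10, SE 0.294, adjusted p = 0.00898), passed at any fold for *C1qb* (log2 -0.84, adjusted p = 0.0201), and for *C1qa* the fold was -0.58 on the log2 scale with an adjusted p of 0.143. The *C1qc* call lay close to the threshold and was lost in 15 of 26 fits that each left out 1 library (log2 -0.91 to -1.31) in the edgeR fit to those groups alone (adjusted p = 0.052) and with the replicate number as a block (adjusted p = 0.017).

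The C1q chains did not keep one ratio to each other. Per kilobase of transcript, the level of *C1qc* was 0.431 times that of *C1qa* in the median Intact library (range 0.367 to 0.583) and 0.778 times in sub-SCI (0.689 to 0.816), with no overlap between the groups. The ratio was 0.706 in +PBS-1w (0.635 to 0.712), also above every Intact library. In the later groups its median lay within the Intact range with PBS (0.547 in +PBS-2w and 0.557 in +PBS-4w) and with hUC-MSCs (0.545, 0.459 and 0.518 at 1, 2 and 4 wpt). The *C1qb* to *C1qa* ratio was 0.593 in Intact (0.503 to 0.62) and 0.793 in sub-SCI (0.553 to 0.813), where the ranges overlapped. Over the 22 injured libraries the log2 levels of *C1qb* and *C1qc* had a Pearson r of 0.979 (Spearman rho 0.973) and those of *C1qa* and *C1qb* an r of 0.924 (rho 0.866). These values are descriptions across libraries that share treatments, and with group means removed the r were 0.958 and 0.818.

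The initiating proteases had smaller fold changes than C1q at day 7, and their estimates at 4 wpt were not below those at day 7. *C1r* was at 10.2, 33.1, 43.0 and 37.1 CPM in Intact, with the replicate 1 library far below the other three. In sub-SCI *C1r* stood at 143, 156 and 218 CPM, in +PBS-1w at 142, 194 and 393 CPM, and in +PBS-4w at 136, 282, 245 and 248 CPM. No injured library overlapped Intact. The log2 fold change of *C1r* over Intact was 2.48 (SE 0.382, adjusted p = 9.21e-06) in sub-SCI, 2.97 in +PBS-1w, 2.29 in +PBS-2w and 2.88 in +PBS-4w. *C1s* ran beside it, at 10.7, 25.6, 41.1 and 30.6 CPM in Intact, 103, 96.1 and 148 CPM in sub-SCI and 126, 260, 254 and 230 CPM in +PBS-4w. The *C1s* rise over Intact went from 2.09 (SE 0.348) in sub-SCI to 3.01 (SE 0.345) in +PBS-4w on the log2 scale, while the direct comparison of +PBS-4w with sub-SCI gave 0.91 with an adjusted p of 0.0607. Per kilobase, *C1s* stood at 0.817 times *C1r* in the median Intact library (range 0.71 to 0.962) and 0.623 times in sub-SCI (0.565 to 0.659), without overlap. In +PBS-4w it stood at 0.849 times (0.846 to 0.951), above every sub-SCI library and within the Intact range.

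*Serping1*, which encodes the inhibitor of both proteases, was higher at 4 wpt than at day 7. It was at 11.1, 38.6, 52.3 and 39.7 CPM in Intact, 162, 172 and 263 CPM in sub-SCI, 220, 348 and 608 CPM in +PBS-1w, 325 and 365 CPM in +PBS-2w, and 361, 519, 476 and 391 CPM in +PBS-4w. Every +PBS-4w library was above every sub-SCI library. The log2 fold change of *Serping1* over Intact was 2.49 (SE 0.36) in sub-SCI and 3.62 (SE 0.362, 12.3-fold, adjusted p = 7.69e-08) in +PBS-4w, and +PBS-4w exceeded sub-SCI by 1.13 (SE 0.363, adjusted p = 0.026), a call at any fold but not a DEG. It became a DEG with the replicate block (adjusted p = 0.00793), in DESeq2 on the groups compared (adjusted p = 0.000137), with a replicate 1 term (adjusted p = 0.00936) and in the libraries not numbered replicate 1 (adjusted p = 0.00886). Per kilobase, *Serping1* was 1.65 times *C1r* in Intact (1.57 to 1.78) and 1.67 times in sub-SCI (1.62 to 1.77), and it was 2.77 times in +PBS-4w (2.31 to 3.88) and 2.88 times in +MSC-4w (2.66 to 4.27). The inhibitor thus held its ratio to *C1r* at day 7 and stood higher in all libraries of the later groups, with or without hUC-MSCs.

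*C3*, the component on which the pathways converge, was the exception. It was at 135, 217, 133 and 250 CPM in Intact and 236, 248 and 56.3 CPM in sub-SCI, so that its log2 fold change was -0.03 with a 95% interval of -1.15 to 1.09 (adjusted p = 0.966). The sign of that value turned under 7 other settings, where it lay between 0.000423 and 0.0965. In +PBS-1w *C3* was at 442, 1608 and 295 CPM, a DEG call over Intact (log2 2.09, SE 0.541, adjusted p = 0.00261). A single library of 1608 CPM carried much of this, and without it the log2 fold change was 1.00 and the call was lost. The call was also lost without Intact replicate 3 and in an edgeR fit to those 2 groups alone. At 2 wpt the +PBS libraries of *C3* held 455 and 354 CPM (log2 1.14, adjusted p = 0.137), which DESeq2 on those 2 groups alone called a DEG (log2 1.15, adjusted p = 5.75e-05). At 4 wpt they held 236, 234, 220 and 206 CPM (log2 0.28, adjusted p = 0.659).

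The anaphylatoxin receptors were lowest in Intact and highest at day 7. *C5ar1*, the receptor for C5a, was at 1.69, 3.57, 5.23 and 5.25 CPM in Intact, from 31 reads upward, and at 71.4, 87.2 and 92.1 CPM in sub-SCI, which is a 21.1-fold rise (log2 4.40, SE 0.293, adjusted p = 1.09e-10). It was lower in each later +PBS group, at 46.5, 30.6 and 32.1 CPM in +PBS-1w, 22.7 and 14.4 CPM in +PBS-2w and 11.3, 14.0, 15.6 and 14.9 CPM in +PBS-4w. The sub-SCI, +PBS-1w and +PBS-2w groups of *C5ar1* did not overlap one another, and +PBS-2w overlapped +PBS-4w, and the steps between +PBS weeks were not tested. Against sub-SCI, *C5ar1* was lower in +PBS-1w by an any-fold call (log2 -1.20, adjusted p = 0.0278) and in +PBS-4w as a DEG (log2 -2.58, SE 0.27, adjusted p = 2.28e-06), and it was still 3.51-fold above Intact at 4 wpt. *C3ar1*, the receptor for C3a, went from 1.36, 2.66, 3.19 and 2.97 CPM in Intact to 34.4, 41.7 and 36.8 CPM in sub-SCI (log2 3.87, SE 0.419) and to 5.25, 14.4, 17.6 and 18.7 CPM in +PBS-4w, where it was below sub-SCI (log2 -1.43, adjusted p = 0.00886), a call that was likewise lost in 15 of the 26 fits without 1 library. The *C5ar1* call held in all 26 of them. Per kilobase, *C3ar1* was at 0.653 times *C5ar1* in Intact (0.545 to 0.777) and 0.461 times in sub-SCI (0.385 to 0.464), below every Intact library. It was at 0.915 times in +PBS-2w (0.903 to 0.927) and 1.04 times in +PBS-4w (0.45 to 1.21). The +PBS-4w range overlapped those of sub-SCI and Intact.

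**Figure D1:**
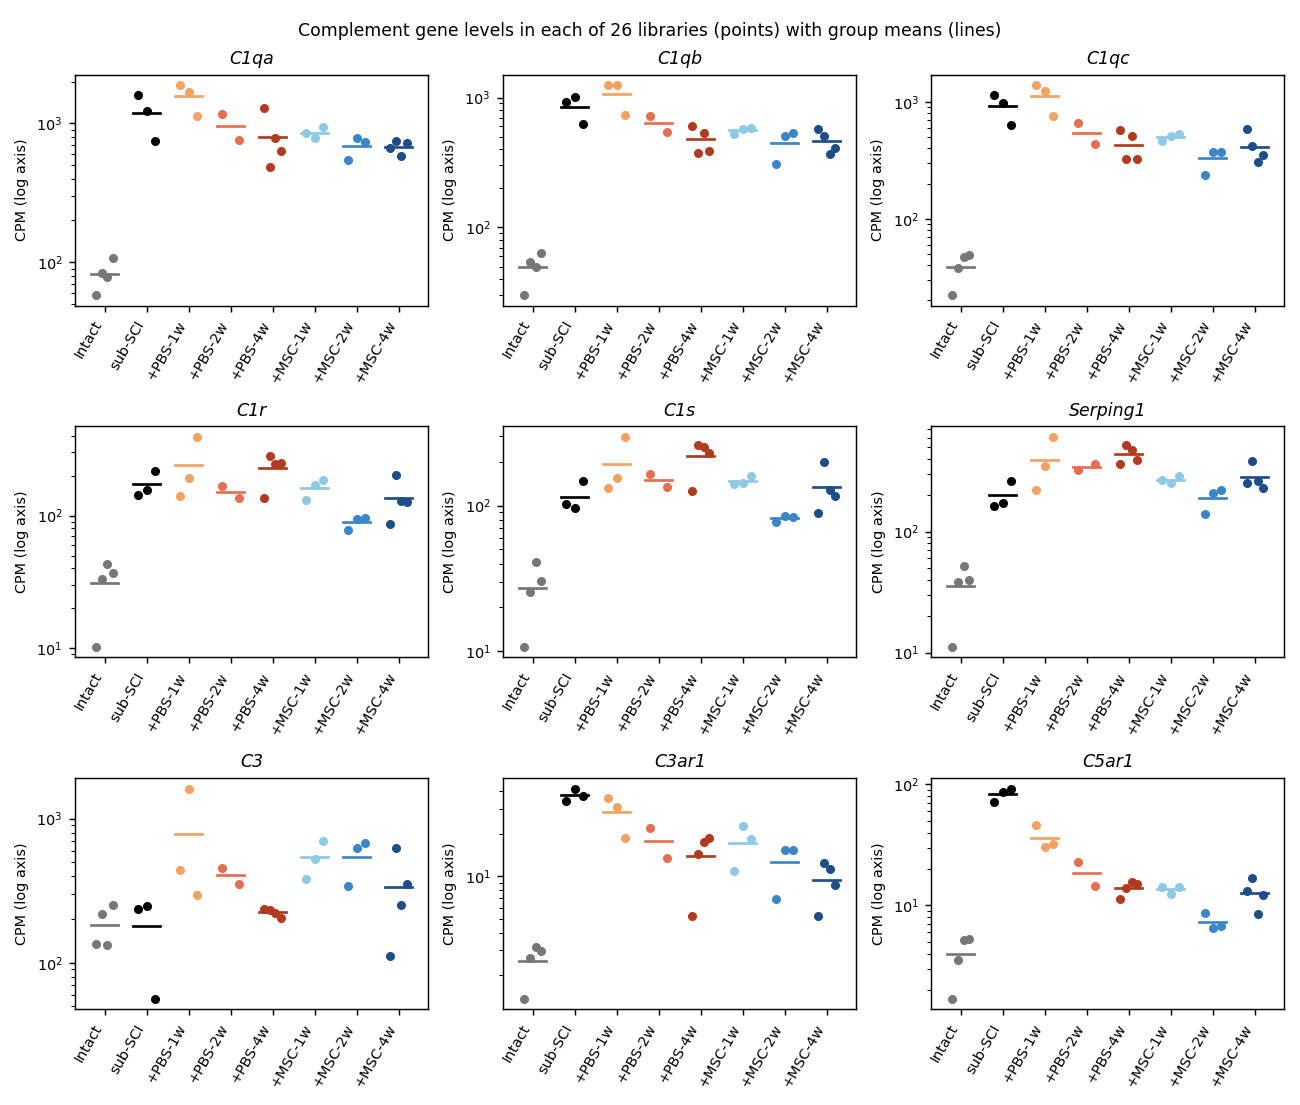
Level of each of the 9 complement genes in CPM (vertical axis, logarithmic) in the 26 libraries of 8 groups (horizontal axis), where points are libraries and lines are group means. Intact libraries lie lowest for every gene but *C3*, and *C5ar1* steps down from 83.6 CPM in sub-SCI to 13.9 CPM in +PBS-4w on average while *Serping1* goes from 199 to 437 CPM.

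By count, 8 of 9 members were called higher in sub-SCI than in Intact, where 16.6% of all genes were called higher. All 9 were called higher in +PBS-1w (13.5% of all genes), 8 in +PBS-2w (8.84%) and 8 in +PBS-4w (13.3%), *C3* being the one not called each time. The median log2 fold change of the 9 was 3.86, 3.47, 2.78 and 3.01 in these 4 comparisons, and that of all genes lay between -0.02 and 0.05. Without any overlap between groups, 8 members were higher in sub-SCI (32.9% of all genes), 9 in +PBS-1w (28.5%), 9 in +PBS-2w (31.1%) and 8 in +PBS-4w (22.4%). These comparisons share the Intact libraries. Against sub-SCI, 0 of 9 members were DEGs in +PBS-1w (0.05% of all genes higher and 0.106% lower) and 3 were DEGs with lower levels in +PBS-4w (3.09% of all genes), namely *C1qc*, *C3ar1* and *C5ar1*. All libraries of +PBS-4w lay below all of sub-SCI for 4 members (13.8% of all genes) and above them for 1 (12.5%). At an adjusted p under 0.05, 1 member was lower in +PBS-1w (1.51% of all genes), and in +PBS-4w 4 were lower (11.6%) and 1 was higher (13.4%). At an unadjusted p under 0.05, +PBS-1w differed from sub-SCI in 3353 of all genes tested, *C3*, *C5ar1* and *Serping1* among them.

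**Figure D2:**
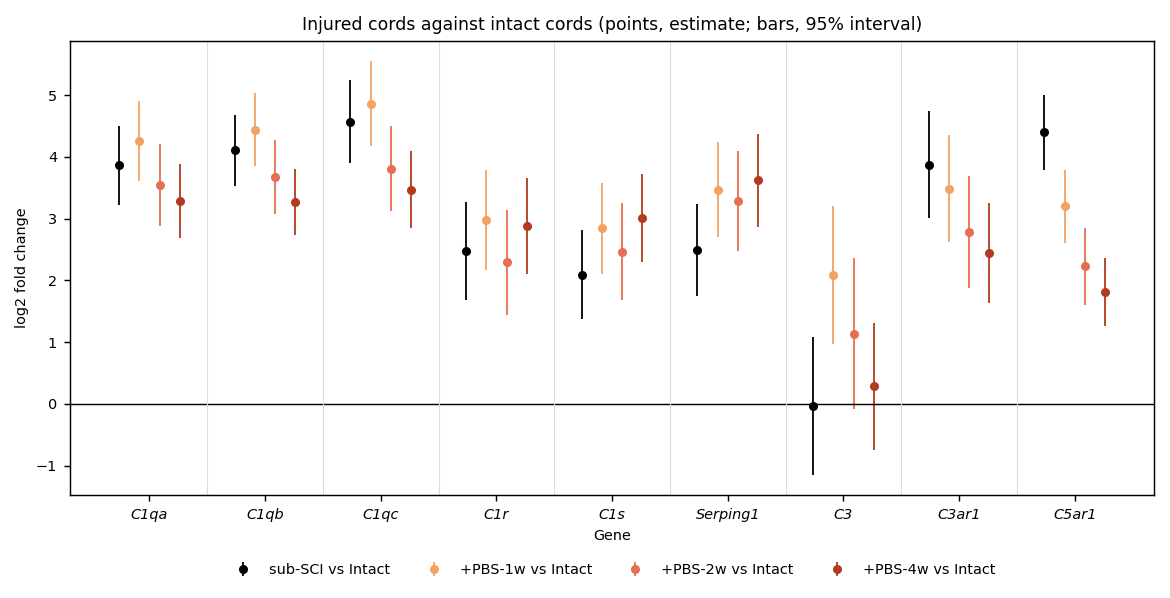
Log2 fold change (vertical axis) of each gene (horizontal axis) in sub-SCI, +PBS-1w, +PBS-2w and +PBS-4w against Intact, where points are edgeR estimates and bars are 95% intervals. All estimates but that of *C3* in sub-SCI (-0.03) lie above 0, and the C1q estimates lie between 3.27 and 4.86.

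The next question was whether complement transcripts differed between hUC-MSC and PBS cords of the same week. In the edgeR fit to all libraries no member passed either rule in any single week. At the DEG rule 0 of 9 were called at 1, 2 and 4 wpt, where 0.0111%, 0% and 0.495% of all genes were called in either direction, and at an adjusted p under 0.05 the count was also 0 of 9, with 0.1%, 0% and 4% of all genes called. At an unadjusted p under 0.05 the members that passed were *C1qa*, *C1qb*, *C1qc* and *C5ar1* at 1 wpt (17.9% of all genes passed), *C1qc*, *C1s* and *C5ar1* at 2 wpt (12.3%), and *C1r* and *C1s* at 4 wpt (22.5%), all lower with hUC-MSCs. The 2 members at 4 wpt were thus about the share of all genes. The counts of 0 at 1 and 2 wpt depended on the fit. *C5ar1* at 1 wpt passed at an adjusted p under 0.05 in 7 of 9 other settings, the replicate block among them (adjusted p = 0.0443), and in 9 of the 26 fits without 1 library. DESeq2 on all libraries passed *C1qb*, *C1qc* and *C5ar1* at 1 wpt, the last as a DEG, and *C5ar1* at 2 wpt. DESeq2 on the groups compared passed the C1q genes and *C5ar1* at 1 wpt, with *C1qc* and *C5ar1* as DEGs, and *C1r*, *C1s*, *C5ar1* and *Serping1* at 2 wpt, with *C5ar1* as a DEG. At 2 wpt edgeR on the groups compared passed *C1s*, and at 4 wpt no member passed in any of these settings. The shares of all genes above come from the edgeR fit to all libraries and do not apply to these other fits. Whether members passed more often than all genes in those fits is therefore not shown here. The study, using DESeq2 with the same fold and adjusted p thresholds, reported genes reversed by hUC-MSCs at 1, 2 and 4 wpt. In its clustering on those genes a +PBS-2w library fell with +MSC-2w, which it proposes may be better spontaneous recovery.

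*C5ar1* had the largest difference at 1 and 2 wpt. In +MSC-1w it was at 14.3, 12.4 and 14.3 CPM, all below the +PBS-1w libraries of 46.5, 30.6 and 32.1 CPM (log2 -1.42, SE 0.289, 95% interval -2.02 to -0.82, adjusted p = 0.0543). In +MSC-2w *C5ar1* was at 8.65, 6.53 and 6.73 CPM, again all below the 22.7 and 14.4 CPM of +PBS-2w (log2 -1.34, SE 0.318, adjusted p = 0.168). At 4 wpt the groups overlapped, with 13.3, 16.9, 8.55 and 12.2 CPM in +MSC-4w (log2 -0.13, 95% interval -0.64 to 0.39). The +MSC-2w level of *C5ar1* was the nearest to Intact of all injured groups, 1.84-fold above it and called at any fold only (adjusted p = 0.0306).

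The C1q genes had lower estimates with hUC-MSCs at each week. In +MSC-1w *C1qc* was at 466, 513 and 533 CPM, below each +PBS-1w library (log2 -1.17, SE 0.32, adjusted p = 0.0932), and *C1qa* was at 845, 789 and 940 CPM (log2 -0.87, adjusted p = 0.158). The +PBS-1w libraries of *C1qa* spread from 1137 to 1887 CPM and the +MSC-1w ones from 789 to 940 CPM. At 2 wpt *C1qc* was at 239, 374 and 373 CPM with hUC-MSCs and 659 and 434 CPM with PBS (log2 -0.73, adjusted p = 0.403). At 4 wpt *C1qc* was at 589, 417, 304 and 348 CPM with hUC-MSCs, across the whole PBS range (log2 -0.06, 95% interval -0.63 to 0.51), and *C1qb* gave -0.03. Whether the hUC-MSC difference itself changed from 1 to 4 wpt was tested by an interaction. The change was 1.29 for *C5ar1*, 1.11 for *C1qc* and 0.90 for *C1qb* on the log2 scale, and 0 of the 9 members passed after adjustment (adjusted p = 0.999 for each of these genes by edgeR, with 0% of all genes called). At an unadjusted p under 0.05 these 3 members were among 702 of all genes that passed.

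*C1r*, *C1s* and *Serping1* also had lower estimates at each week, and without 1 library that of *C1s* at 1 wpt came to 0.0517 at the highest. At 4 wpt the log2 difference was -0.74 for *C1r* (SE 0.348, adjusted p = 0.208), -0.71 for *C1s* (SE 0.319, adjusted p = 0.192) and -0.63 for *Serping1* (SE 0.327, adjusted p = 0.257). At 2 wpt *C1r* was at 78.1, 95.1 and 96.2 CPM with hUC-MSCs against 168 and 135 CPM with PBS, *C1s* at 77.0, 85.1 and 83.5 CPM against 165 and 134 CPM, and *Serping1* at 140, 209 and 222 CPM against 325 and 365 CPM. The 2 groups did not overlap for any of these 3 genes. *C3ar1* had -0.73, -0.49 and -0.56 on the log2 scale at 1, 2 and 4 wpt (adjusted p = 0.362, 0.695 and 0.364). In all, 4 members were lower without overlap at 1 wpt (11.6% of all genes), 6 at 2 wpt (18.4%) and 0 at 4 wpt (4.47%).

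*C3* had estimates of both signs. It was at 382, 528 and 702 CPM in +MSC-1w, 338, 623 and 674 CPM in +MSC-2w and 112, 624, 250 and 350 CPM in +MSC-4w. The hUC-MSC difference in *C3* was -0.54, 0.43 and 0.58 on the log2 scale at 1, 2 and 4 wpt, with intervals that all included 0 (the widest from -0.92 to 1.78). *C3* in +MSC cords against Intact gave 1.55 at 1 wpt (adjusted p = 0.0308) and 1.57 at 2 wpt (adjusted p = 0.0437), both calls at any fold only. DESeq2 and edgeR on those groups alone made both of them DEGs.

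Averaged over the 3 weeks, hUC-MSC cords had lower levels of 7 of the 9 members at an adjusted p under 0.05, where 10.9% of all genes were lower, and 0 members were DEGs (0.956% of all genes lower). *C5ar1* gave the largest value (log2 -0.96, SE 0.165, adjusted p = 0.000757), followed by *C1r* (-0.69, adjusted p = 0.0338), *Serping1* (-0.68, adjusted p = 0.0284), *C1qc* (-0.65, adjusted p = 0.0143), *C1s* (-0.65, adjusted p = 0.0299), *C1qa* (-0.53, adjusted p = 0.0338) and *C1qb* (-0.49, adjusted p = 0.0305). *C3ar1* had -0.59 with an adjusted p of 0.0728 and *C3* had 0.16 with an adjusted p of 0.779. The count of 7 rested on few libraries. Without +PBS-2w replicate 1 only *C5ar1* passed (1 of 9, with 4.44% of all genes lower), and without +MSC-2w replicate 1 *C1qc* and *C5ar1* passed (9.05% of all genes lower). Without +MSC-1w replicate 1 these and *Serping1* passed (8.87%), and without +PBS-1w replicate 3 the C1q genes and *C5ar1* (6.9%). *C5ar1* passed in all 26 of these fits, with log2 values from -0.86 to -1.06. In the 18 libraries not numbered replicate 1, *C1r*, *C1s*, *C5ar1* and *Serping1* passed (4 of 9), and *C1qa*, *C1qb* and *C1qc* had -0.20, -0.28 and -0.42. The share of all genes lower in that fit is not given here.

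**Figure D3:**
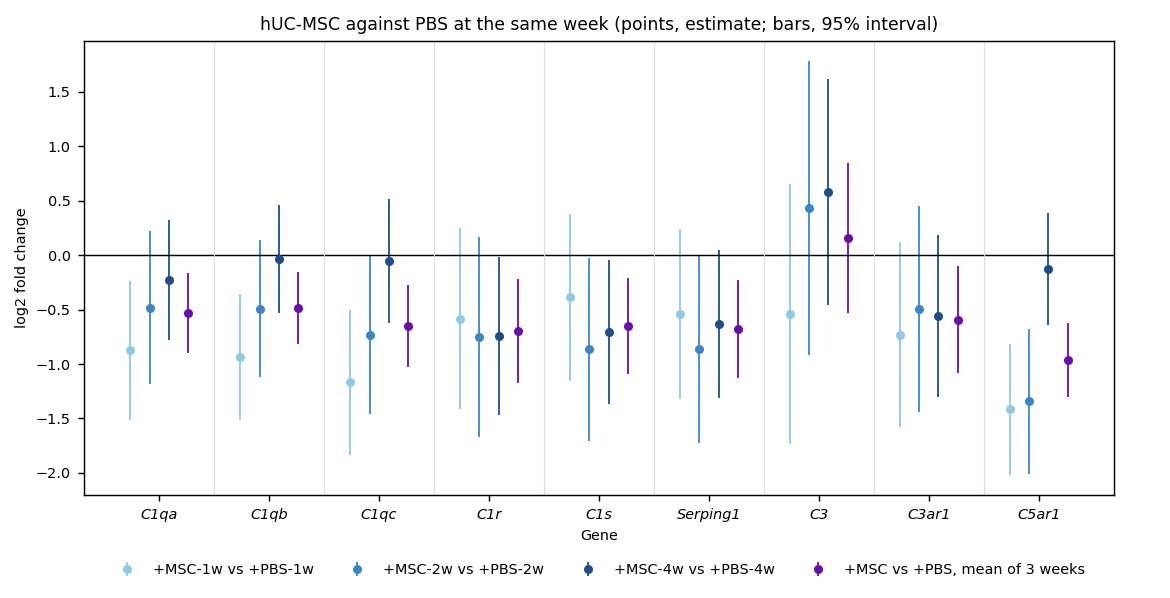
Log2 fold change (vertical axis) of +MSC against +PBS for each gene (horizontal axis) at 1, 2 and 4 wpt and averaged over these weeks, where points are edgeR estimates and bars are 95% intervals. For *C5ar1* the estimates are -1.42, -1.34 and -0.13 by week, and for *C1r* they are -0.58, -0.76 and -0.74.

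The members stayed above Intact in hUC-MSC cords. Called higher than Intact were 8 of 9 in +MSC-1w (7.87% of all genes), 7 in +MSC-2w (5.6%) and 8 in +MSC-4w (7.25%), with medians of the 9 log2 fold changes of 2.76, 2.29 and 2.30. *C1qa* was 10.5-fold, 8.37-fold and 8.28-fold above Intact at 1, 2 and 4 wpt, and *Serping1* 7.60-fold, 5.36-fold and 7.96-fold. Without overlap, 9 members lay above Intact in +MSC-1w (24.5% of all genes), 9 in +MSC-2w (18.8%) and 8 in +MSC-4w (18.3%). For *C1qa* the order of group means ran from +PBS-1w (1572 CPM) through sub-SCI (1192), +PBS-2w (961), +MSC-1w (858), +PBS-4w (798), +MSC-2w (687) and +MSC-4w (680) to Intact (82.1), and neighbours in this order overlapped until the step to Intact.

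Because C1q and the anaphylatoxin receptors are made largely by myeloid cells, each member was set against 12 markers of microglia and macrophages, and the proteases against 9 markers of fibroblasts. All 12 microglia and macrophage markers had higher estimates in sub-SCI than in Intact, with a median log2 fold change of 3.56 and 10 DEG calls. With hUC-MSCs 0 of the 12 had a higher estimate at 1 wpt (median -0.61), and the medians at 2 and 4 wpt were -0.15 and -0.13, beside *C5ar1* at -1.42, -1.34 and -0.13. At each of these weeks 0 of the 12 were DEGs. Relative to the mean log2 level of these markers, *C1qc* was 1.40 higher in sub-SCI than in Intact (SD in sub-SCI 0.408), *C1qa* 0.64 higher (SD 0.532) and *C5ar1* 1.32 higher (SD 0.223). On the same scale *C5ar1* was at 0.18 in +PBS-1w and below its Intact position in the other groups after sub-SCI. It was at -0.38 in +PBS-2w, -0.54 in +PBS-4w, -0.68 in +MSC-1w, -1.48 in +MSC-2w and -0.54 in +MSC-4w. *C1qc* stayed 0.64 to 1.77 above its own Intact position in every injured group. Against homeostatic microglia markers alone, which respond less to injury, every one of these values was higher by more than 1 SD of the group. The direction for *C5ar1* then turned, to 1.33 in +PBS-2w, 1.41 in +PBS-4w, 0.85 in +MSC-1w and 1.07 in +MSC-4w, and in +MSC-2w it came to -0.12. The part of cell number in these results was not tested.

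Fibroblast markers were set beside *C1r*, *C1s* and *Serping1*. All 9 fibroblast markers had higher estimates in sub-SCI than in Intact (median 3.78, 9 DEG calls). With hUC-MSCs 0 of 9 had a higher estimate at 1, 2 or 4 wpt, with medians of -1.12, -1.57 and -1.05 and 0 DEG calls at each week. The 4 endothelial markers tested were also lower at each week (medians -0.54, -0.41 and -0.28). The Intact library lowest in *C1r*, *C1s* and *Serping1* was also the lowest in fibroblast markers, at 255.3 summed CPM against 746.8 to 1411 in the other 3. It was the lowest in Schwann cell markers too, at 218.4 against 771.8 to 1417 CPM. Over the 22 injured libraries with group means removed, r with the fibroblast markers was 0.868 for *C1r*, 0.881 for *C1s* and 0.531 for *Serping1*, and it was -0.683 for *C1qa*, -0.66 for *C1qb* and -0.701 for *C1qc*. For *C3ar1* and *C5ar1* it was 0.474 and 0.325. With group means kept, the r with the fibroblast markers was 0.798 for *C1r*, 0.6 for *C1s* and 0.314 for *Serping1*. For the receptors this r was 0.826 for *C5ar1*, above all of these, and 0.7 for *C3ar1*, below *C1r* and above *C1s* and *Serping1*. It turned positive for the C1q genes, at 0.316, 0.416 and 0.506 for *C1qa*, *C1qb* and *C1qc*. From sub-SCI to +PBS-4w the mean log2 CPM of the fibroblast markers went down from 8.995 to 7.577, while mean *Serping1* went from 199 to 437 CPM. Over the same span the astrocyte markers went up from 7.012 to 8.029 and the Schwann cell markers from 6.63 to 7.901. The microglia and macrophage markers went down from 7.45 to 6.731 and the endothelial markers from 5.994 to 5.555. With the microglia and macrophage markers, *C1qa*, *C1qb* and *C1qc* had r of 0.822, 0.854 and 0.824 with group means kept and 0.643, 0.615 and 0.495 with them removed, and *C3* had 0.127 and 0.494. Markers of hepatocytes, the main source of complement in blood, summed to between 1.05 and 7.89 CPM in all groups. The part of fibroblast, astrocyte or Schwann cell content in these results was not tested.

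**Figure D4:**
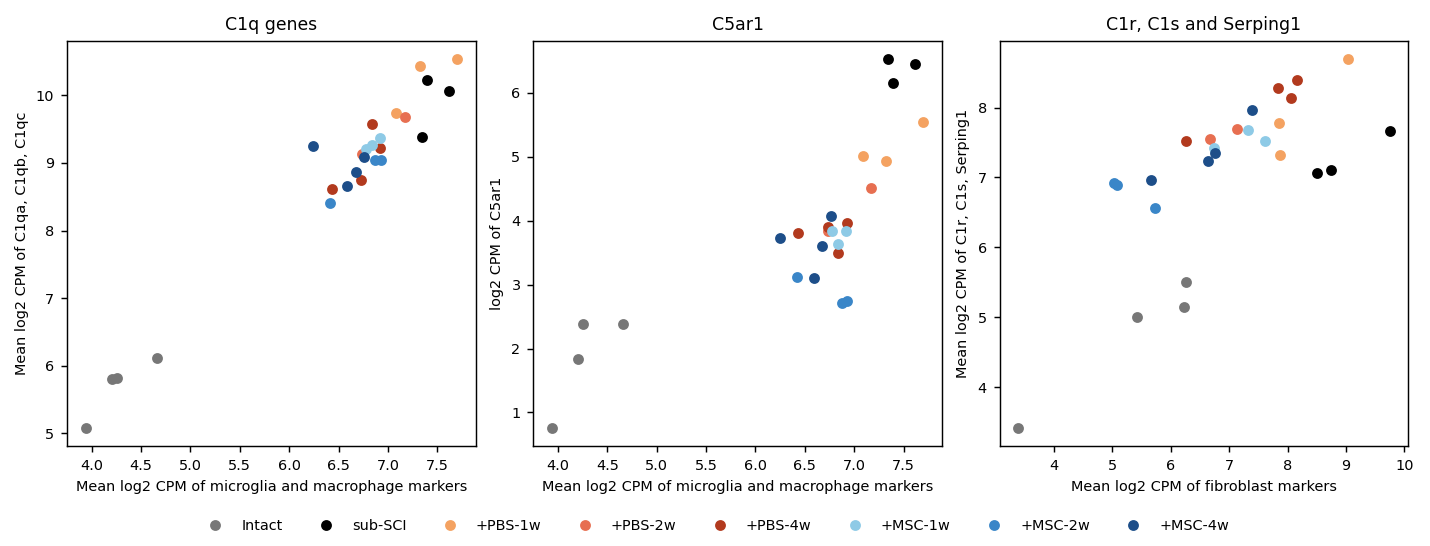
Mean log2 CPM of *C1qa*, *C1qb* and *C1qc* (left) and log2 CPM of *C5ar1* (middle) against the mean log2 CPM of 12 microglia and macrophage markers, and mean log2 CPM of *C1r*, *C1s* and *Serping1* against that of 9 fibroblast markers (right), where each point is a library coloured by group. Of the injured libraries, 2 of +MSC-2w lie lowest for the fibroblast markers (mean log2 CPM 5.029 and 5.083), followed by 1 of +MSC-4w (5.655) and the other of +MSC-2w (5.726), and 2 of +MSC-2w lie lowest for *C5ar1* (6.53 and 6.73 CPM).

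The genes whose log2 CPM followed each member most closely over the 26 libraries are given as a description, since the gap between Intact and injured cord enters each r. *C1qa* was nearest to *Blnk* and *Hcls1* (r = 0.98 and 0.979), *C1qb* to *Otulinl* and *Grn* (0.983 and 0.982), and *C1qc* to *Otulinl* and *Ptpn6* (0.976 and 0.974). *C5ar1* was nearest to *Sdc1*, *Ctsl* and *Ninj1* (0.969, 0.963 and 0.962), *C3ar1* to *Lhfpl2* and *Ticam2* (0.969 and 0.968) and *C1r* to *Parp10* and *Icam1* (0.972 and 0.971). *Serping1* and *C1s* shared *Matn2* as nearest gene (0.976 and 0.969). *C3* had the loosest match, with *Hcar2* at 0.883 and *Cxcl13* at 0.8.

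The rest of the pathway was read from a list of 45 further complement genes, of which 35 were tested and the others were under the filter or not found by name. In sub-SCI 18 of the 35 were DEGs above Intact and 3 below, and in +PBS-4w these counts were 21 and 3, beside the shares of all genes given above for higher calls and 17.5% and 10.7% for lower calls. Of the early components, *C2*, the protease that joins C4 in the C3 convertase, had a log2 fold change of 3.52 in sub-SCI and 3.41 in +PBS-4w. *C4a* had 1.69 and 3.10, and it was higher in +PBS-4w than in sub-SCI (log2 1.41, adjusted p = 0.00085). Reads of *C4a* and *C4b* may be shared between these near-identical genes, so that their split is uncertain. In the alternative pathway *Cfd*, encoding factor D, had 4.55 in sub-SCI, while factor B was all but undetected, with at most 0.104 CPM on average in any group over its 2 rows.

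Receptors and regulators moved in both directions. *Itgam*, *Itgax* and *Itgb2*, which encode the integrin chains of complement receptors 3 and 4, were DEGs above Intact in sub-SCI, with *Itgb2* at 3.95 and *Itgax* at 4.71 on the log2 scale. *Csmd1*, *Csmd2* and *Susd4*, which encode complement regulators expressed in the nervous system, were the 3 DEGs below Intact in sub-SCI, at -2.40, -1.45 and -2.40, and the neuronal markers stood at 385.2 to 1837 summed CPM there, against 8285 to 10180 in Intact. The fluid-phase regulators *Clu* and *Vtn* were not DEGs in sub-SCI and were higher in +PBS-4w than in sub-SCI by 1.68 and 2.39 on the log2 scale (adjusted p = 1.64e-06 and 8.88e-06). *Clu*, encoding clusterin, went from 1104 CPM in sub-SCI to 3549 CPM in +PBS-4w.

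The same comparison with PBS was made for the further complement genes. At 1 wpt 1 of the 35 passed at an adjusted p under 0.05, *Cfp* (properdin, log2 -1.38, adjusted p = 0.0255), and at 2 and 4 wpt 0 passed. Averaged over the weeks, 3 of the 35 were DEGs with lower levels (0.956% of all genes), namely *C6* (log2 -1.59, adjusted p = 0.00622), a component of the membrane attack complex, *Cfd* (-1.09, adjusted p = 0.00237) and *Colec12* (-1.36, adjusted p = 0.00498), a scavenger receptor of the collectin family. At an adjusted p under 0.05, 11 were lower (10.9% of all genes) and 3 higher (12.3%). The 3 that were higher were *Cd59* (0.37), a membrane inhibitor of the terminal complex, *Csmd1* (0.67) and *Susd4* (0.88). Without +PBS-2w replicate 1, *C6* (log2 -1.195), *Cd59* and *Csmd1* did not pass at that level (adjusted p = 0.0631, 0.0922 and 0.0544). In the libraries not numbered replicate 1, *Cd59* and *Csmd1* did not pass either (adjusted p = 0.0828 and 0.106). The neuronal markers also had higher medians with hUC-MSCs, at 4335 summed CPM against 1674 with PBS at 1 wpt, 5181 against 3335 at 2 wpt and 5558 against 1742 at 4 wpt. At 4 wpt the groups overlapped (5089 to 6627 CPM with hUC-MSCs, 1426 to 5572 CPM with PBS). Of the 8 neuronal markers, 0 were DEGs in any single week and 3 were DEGs with higher levels over the mean of 3 weeks. The part of these markers in the values of *Cd59*, *Csmd1* and *Susd4* was not tested. Of the 35, 10 had higher estimates with hUC-MSCs, and their median log2 value was -0.28, beside -0.65 over the 9 members and -0.02 over all genes.

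**Figure D5:**
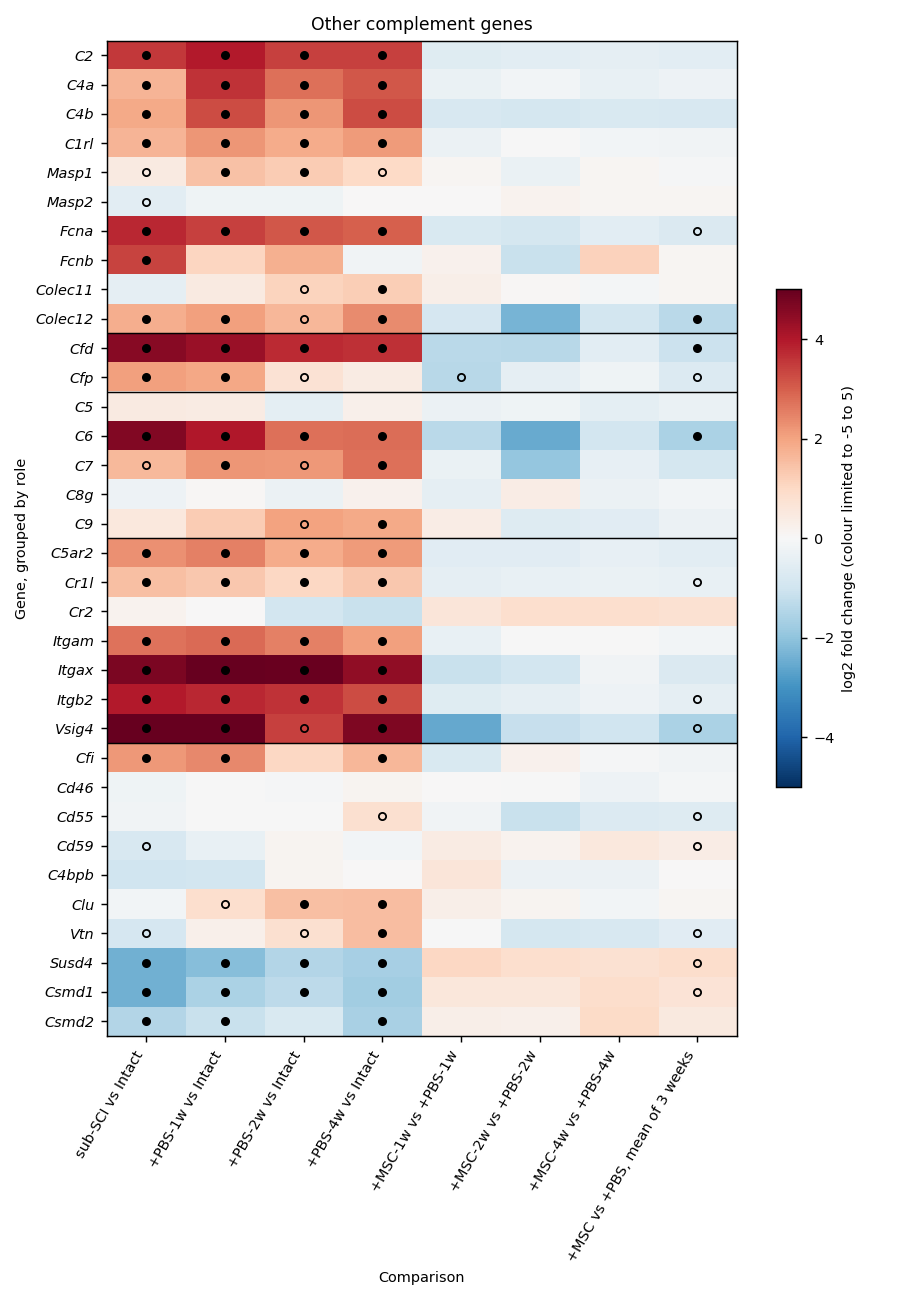
Log2 fold change (colour, limited to -5 to 5) of the further complement genes shown (rows, grouped by role) in 8 comparisons (columns), where filled circles mark DEGs and open circles other calls at an adjusted p under 0.05. In sub-SCI the 3 DEGs below Intact are *Csmd1*, *Csmd2* and *Susd4*, and in the column averaging the 3 weeks 3 filled circles mark *C6*, *Cfd* and *Colec12*.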

How the data were processed

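The authors trimmed reads with Trim Galore (v0.5.0), removed reads that mapped to the human genome, aligned the rest to Rnor6 with HISAT2 (v2.1.0), kept proper pairs with SAMtools (v1.9) and deposited whole-number read counts per gene from featureCounts (v1.6.4), with a gene length column. Removal of human-like reads may also take reads of conserved rat genes, and this was not tested. Counts were analysed as deposited, in R (v4.3.3), with edgeR (v4.0.16): filterByExpr, TMM, and the quasi-likelihood test (glmQLFit, glmQLFTest) on 8 groups, with Benjamini-Hochberg adjustment. This test was checked on simulated data with planted changes larger than the hUC-MSC differences given here, so its power at those sizes was not examined. All 26 libraries entered, 0 sample columns were left unused and 0 pairs of libraries were identical. CPM per kilobase used the deposited length. DESeq2 (v1.42.0) was an alternative. All members are named, other complement genes come from a fixed list by call or role, and the 3 genes nearest to each member by Pearson r were listed. The methods call the libraries biological replicates, whereas the labels give only separate samples. Members, lists and tests were chosen with earlier results of these data known. Counts limit precision: members held 25 to 63472 reads per library. Where replicate numbers are shared, pairing was checked and is given below. 1 further complement gene that entered the counts is not reported here.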

Additional observations from a re-analysis of the deposited data

How the results depend on the processing

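The count of called members against Intact stayed within 1.5 times its value under every alternative run, and for +MSC-4w against +PBS-4w and the change from 1 to 4 wpt it stayed at 0. Counts moved in other comparisons. For +MSC-1w against +PBS-1w, DESeq2 called 1 member on all libraries and 2 on the groups compared, and for +MSC-2w against +PBS-2w 1 on the groups compared, where edgeR called 0. For +PBS-1w against sub-SCI, DESeq2 called 2 members on all libraries and 1 on the groups compared, and edgeR called 1 in the libraries not numbered replicate 1. For +PBS-4w against sub-SCI, edgeR on the groups compared called 1. In the libraries not numbered replicate 1, 4 members passed at an adjusted p under 0.05 over the mean of 3 weeks. Shares of all genes under these other fits are not given here. The cause of these moves was not tested.

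Leaving out 1 library at a time gave 0 to 1 DEGs and 1 to 8 calls at an adjusted p under 0.05 for +MSC against +PBS over the mean of 3 weeks, and 1 to 4 DEGs for +PBS-4w against sub-SCI. Signs turned only for values that had not passed the test. For *C3* in sub-SCI against Intact the log2 fold change was 0.0331 with no filter, 0.0212 with at least 10 counts in every library, 0.000423 and 0.00902 with DESeq2 on all libraries and on the groups compared, 0.0144 with edgeR on the groups compared, 0.0365 with a replicate block and 0.0965 with a replicate 1 term, and it ran from -0.33 to 0.397 without 1 library. In the libraries not numbered replicate 1, *C3ar1* in +MSC-2w against +PBS-2w was 0.179, *C1qa* in +MSC-4w against +PBS-4w 0.121, and the change of the hUC-MSC difference from 1 to 4 wpt -0.335 for *C3ar1* and 0.174 for *Serping1*. Without 1 library, +MSC-1w against +PBS-1w ran from -0.606 to 0.0517 for *C1s* and from -0.932 to 0.543 for *C3*. For +MSC-4w against +PBS-4w it ran from -0.408 to 0.0752 for *C1qa*, -0.148 to 0.0775 for *C1qb*, -0.276 to 0.0776 for *C1qc* and -0.297 to 0.0218 for *C5ar1*, and over the mean of 3 weeks from -0.00901 to 0.517 for *C3*. Against sub-SCI it ran from -0.0367 to 0.77 for *C1r* in +PBS-1w and -0.112 to 0.618 for *C3* in +PBS-4w. The change from 1 to 4 wpt ran from -0.694 to 0.113 for *C1r*, -0.0889 to 0.406 for *C3ar1* and -0.553 to 0.198 for *Serping1*.

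Same-numbered libraries were not taken as paired, since not every pair of their deviations from group means correlated over 0.1. These correlations ran from -0.169 to 0.448 (median 0.0579), and 31 of 80 pairs were over 0.1, against 32 of 214 pairs with different numbers (median -0.0255). The excess was largest among the 28 pairs numbered replicate 1 (18 over 0.1, median 0.171), so fits with a replicate 1 term and without those libraries were added after seeing the data. With the replicate block 7 members passed at an adjusted p under 0.05 over the mean of 3 weeks, *C3ar1* in place of *C1qa*, and no count of DEGs moved, though in +PBS-4w against sub-SCI *Serping1* took the place of *C1qc* and *C5ar1* at 1 wpt passed at an adjusted p under 0.05. Median-of-ratios size factors moved the median of all genes by at most 0.0405 on the log2 scale. The level against markers moved by more than 1 SD in 63 of 63 cases with homeostatic markers. The lowest members, *C3ar1* and *C5ar1*, rest on 25 and 31 reads in an Intact library.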
